A study of Mus musculus with 6 samples.

Results

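The proteasome genes described here are those whose platform symbol begins with Psm, followed by a letter from a to g and a number. They encode the subunits of the proteolytic core, its regulatory particle, its activators and their assembly factors. The rule found 50 features for 42 genes, out of 16281 features and 10698 named genes in the table. The samples were RAW 264.7 cells, a transformed mouse macrophage line that some labels write as RAW 264.4. Treated cells had received lipopolysaccharide (LPS) at 100 ng/ml together with LPS-binding protein at 100 pM for 8 h, and untreated cells had been kept for the same 8 h without either. RNA of treated and untreated cells was hybridised together on 6 two-colour arrays, in 3 numbered sets. Each set held both dye orientations, 1 array on which Cy5 marked the treated RNA (the Cy5 orientation) and 1 on which Cy3 did (the Cy3 orientation). All cells were of this 1 line, and no label calls the sets separate cultures. Tests therefore rest on the spread among these sets, and that spread may be technical.

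The proteasome degrades proteins marked with ubiquitin. Its barrel-shaped core, the 20S particle, is built of outer alpha rings and inner beta rings, and 3 of the beta subunits cut peptide bonds. The 19S regulatory particle caps the core: its base holds a ring of ATPases that unfold substrates, and its lid removes ubiquitin. In cells exposed to interferon, 3 alternative catalytic subunits, encoded by Psmb8, Psmb9 and Psmb10, are built into newly made cores in place of Psmb5, Psmb6 and Psmb7. The resulting immunoproteasome is known for producing peptides that fit MHC class I molecules, and macrophages are among the cells that make it after bacterial stimuli.

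Values are log2 ratios, and positive ones mean more RNA in treated cells. The direction is likely rather than stated. It follows the labels, in which Cy3 is the control dye and Cy5 the test dye, and reading the ratio the other way round would turn every sign. A ratio does not give the level of a gene, so subunits cannot be compared in abundance. Whether the cells express macrophage markers cannot be read from a ratio either. Ratios can differ between 2 features of 1 gene, as for Psmd10 (0.62 and 0.09). Comparisons between genes are therefore of measured ratios only. Of 7 measured macrophage markers 5 rose, led by Mpeg1 (1.51), Lyz2 (1.21) and Adgre1 (1.16), and Csf1r fell (-0.19). Of 7 markers of other cell types 0 passed the test. By the same test 17.3% of all genes tested rose and 16.8% fell. Fewer cells and less RNA per cell cannot be told apart in such samples. A value of exactly 0 was counted as not measured, which applied to 8.16% to 13.9% of the features of an array. Arrays turned to treated over untreated correlated across features with r of 0.705 to 0.899 within a dye orientation and 0.428 to 0.8 between orientations, and features are not independent replicates.

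The proteasome genes that changed were mostly slightly higher in treated cells, and 2 immunoproteasome genes were much higher. Of 41 members tested, 21 rose, 2 fell and 18 did not pass an adjusted p of 0.05 (limma on the means of the sets, with p-values adjusted over all 10088 genes tested). Among all genes tested, 17.3% rose and 16.8% fell. The share of members that rose was thus 51.2%, and that of members that fell 4.88%. The median log2 ratio was 0.18 over the members and -0.01 over all genes tested. Only Psmb8 and Psmb10 rose by more than 1.5-fold, and without the 3 immunoproteasome genes 18 of 38 members rose, with a median of 0.15. Of the 18 members not called, 12 had a mean above 0, 4 a mean below 0, and 2 a mean of 0.00. Among the 21 that rose, 19 were above 0 on every array that measured them, and the exceptions were Psma2 and Psme4. The number called depended on set 3 and on the dye orientation. Without set 3, 9 of 38 members rose and 0 fell (limma), while 11.4% of all genes rose and 9.67% fell. Where Cy5 marked the treated RNA, those 3 arrays alone gave 12 of 41 that rose, against 16% of all genes. The 3 arrays of the Cy3 orientation alone gave 17 of 41, against 12.4% of all genes.

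**Figure D1:**
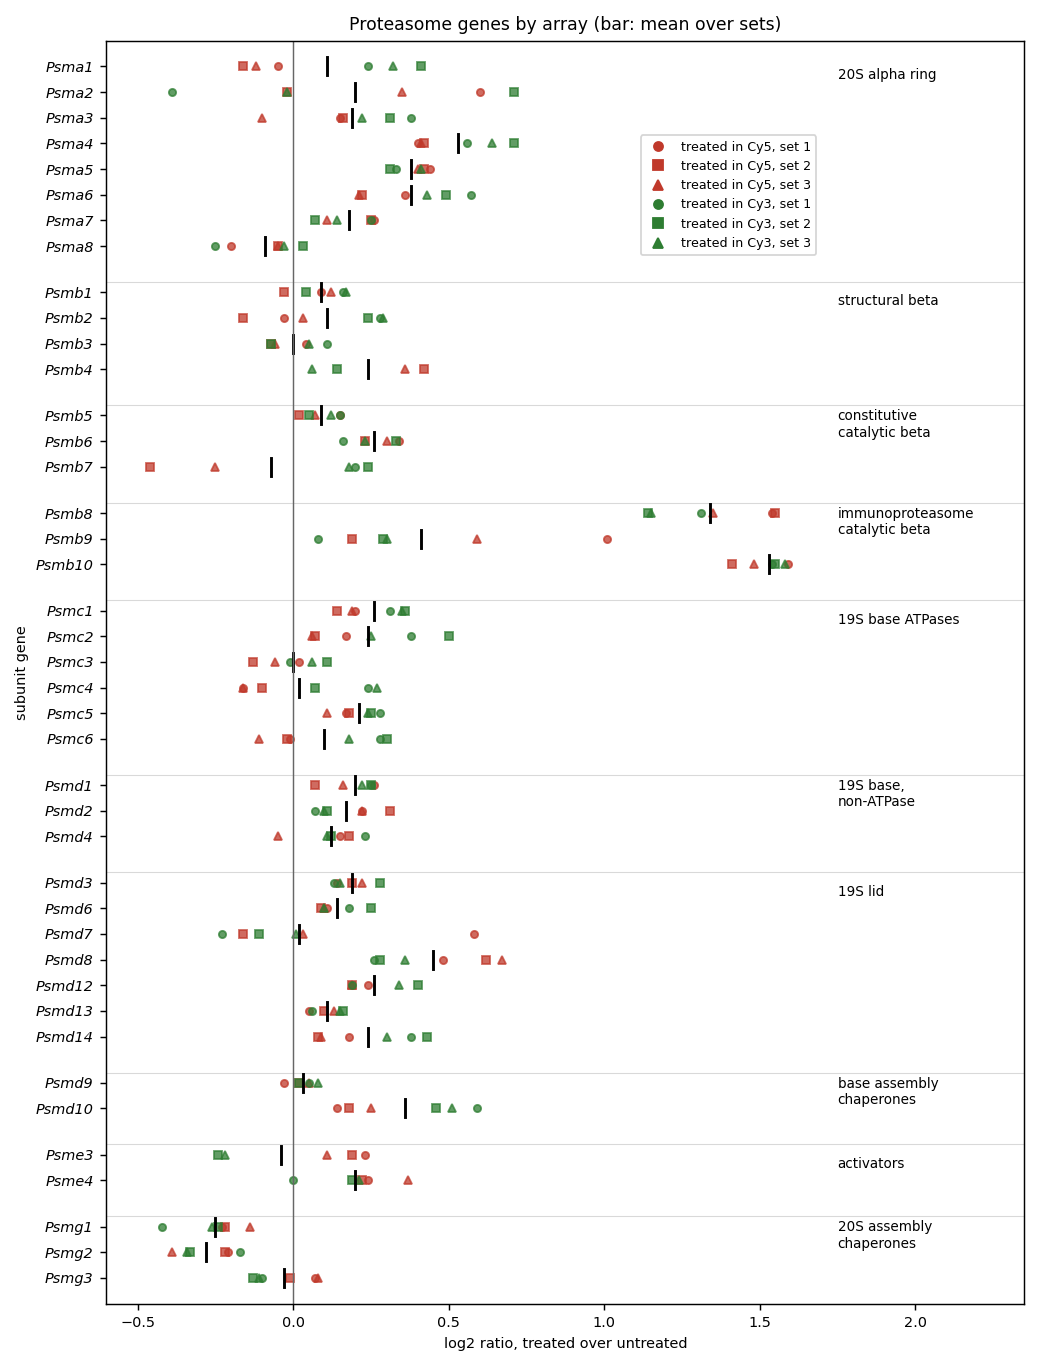
Log2 ratio of treated over untreated cells for the 41 tested proteasome genes on each of the 6 arrays, with colours for the dye of the treated RNA, symbols for the sets and a bar for the mean over sets. Psmb8 and Psmb10 stand apart at 1.34 and 1.53, most other genes lie between 0 and 0.5, and Psmg1 and Psmg2 are below 0 on all 6 arrays.

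All 3 immunoproteasome genes rose, against 17.3% of all genes tested. Psmb10 and Psmb8 had the largest values of the family, while Psmb9 lay below Psma4 and Psmd8. Psmb10, which encodes the subunit MECL-1 with trypsin-like activity, had log2 ratios of 1.59, 1.41 and 1.48 in sets 1, 2 and 3 in the Cy5 orientation, and 1.54, 1.55 and 1.58 in the Cy3 orientation. These 6 values overlapped between the dye orientations and spanned a narrow range. Its mean of 1.53 ± 0.04 (SD, n = 3 sets) corresponds to 2.88-fold, with an adjusted p of 8.28e-06 in limma, and placed it at rank 153 of the 10088 genes. Psmb8, which encodes LMP7 with chymotrypsin-like activity, had 1.54, 1.55 and 1.35 in the Cy5 orientation, and 1.31, 1.14 and 1.15 in the Cy3 orientation. The Cy5 values were all higher than the Cy3 values, by a mean of 0.28 (adjusted p of the dye difference 0.109 in limma). The mean of Psmb8 was 1.34 ± 0.09 (SD, n = 3 sets), or 2.53-fold, with an adjusted p of 2.30e-05 in limma.

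Psmb9, which encodes LMP2, rose less, and its SD over the set means was the highest of all tested members. Its log2 ratios were 1.01, 0.19 and 0.59 in sets 1, 2 and 3 in the Cy5 orientation, and 0.08, 0.29 and 0.30 in the Cy3 orientation. All 6 were above 0, but the 2 arrays of set 1 held both the highest and the lowest value. The mean was 0.41 ± 0.16 (SD, n = 3 sets), or 1.33-fold, with an adjusted p of 0.00559 in limma, against 0.098 in the Cy3 orientation alone and 0.0641 with the 6 arrays as separate values and the set number as a block. Psmb10 exceeded Psmb9 by 1.12 ± 0.11 and Psmb8 exceeded it by 0.93 ± 0.16 (SD, n = 3 sets), on 6 of 6 arrays in both cases. An exact two-sided sign-flip permutation test over 3 sets cannot give a p below 0.25, and it gave 0.25 for both differences.

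The regions before the starts of these 3 genes, and of Psmb5 for comparison, are shown because all 3 rose, Psmb9 by a smaller ratio. Each window runs from 250 bases before to 50 bases after the start, 5′ to 3′ on the strand of the gene, from RefSeq on GRCm38.p6: chr17:34197945-34198244 (plus strand) for Psmb8, chr17:34187281-34187580 (minus strand) for Psmb9, chr8:105938343-105938642 (minus strand) for Psmb10 and chr14:54617946-54618245 (minus strand) for Psmb5. Capitals mark matches to 5 motifs searched on both strands. These were the interferon-stimulated response element (ISRE, GAAA repeated after any 2 bases), the gamma-activated site bound by STAT factors (GAS, TTCNNNGAA), the NF-kappaB site, the antioxidant response element (TGACNNNGC) and the CCAAT box (CCAAT).
Psmb8: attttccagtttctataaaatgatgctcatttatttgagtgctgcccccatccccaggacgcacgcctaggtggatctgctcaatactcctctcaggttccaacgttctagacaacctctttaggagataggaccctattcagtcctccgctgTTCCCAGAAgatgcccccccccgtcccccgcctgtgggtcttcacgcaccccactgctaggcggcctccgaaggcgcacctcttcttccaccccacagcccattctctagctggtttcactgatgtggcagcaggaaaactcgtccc
Psmb9: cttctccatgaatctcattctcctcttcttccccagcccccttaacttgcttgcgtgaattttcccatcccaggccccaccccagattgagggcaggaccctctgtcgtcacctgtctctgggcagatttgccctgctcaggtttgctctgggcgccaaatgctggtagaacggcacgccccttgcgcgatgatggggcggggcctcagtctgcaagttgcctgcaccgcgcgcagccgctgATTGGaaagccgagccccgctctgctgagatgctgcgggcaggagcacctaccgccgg
Psmb10: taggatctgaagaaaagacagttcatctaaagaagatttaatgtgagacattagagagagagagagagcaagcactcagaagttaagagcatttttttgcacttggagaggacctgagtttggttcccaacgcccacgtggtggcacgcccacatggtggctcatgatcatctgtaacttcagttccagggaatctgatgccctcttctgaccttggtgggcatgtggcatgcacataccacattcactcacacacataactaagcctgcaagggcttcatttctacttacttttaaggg
Psmb5: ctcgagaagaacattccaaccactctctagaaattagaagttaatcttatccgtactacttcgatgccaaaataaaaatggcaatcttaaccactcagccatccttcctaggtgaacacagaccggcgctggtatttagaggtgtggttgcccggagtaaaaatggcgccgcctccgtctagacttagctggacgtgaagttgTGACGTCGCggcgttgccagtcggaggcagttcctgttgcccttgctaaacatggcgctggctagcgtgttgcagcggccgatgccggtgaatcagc
The window of Psmb8 held 1 GAS match, TTCCCAGAA, beginning 97 bases before the start. GAS matches occurred in 8.3% of all 32851 windows of this length and in 3 of the 36 windows of members. The window of Psmb9 held a CCAAT match, on the opposite strand. On either strand, 37.4% of all windows and 13 of 36 member windows held this motif. That of Psmb5 held 1 antioxidant response element match, TGACGTCGC, beginning 47 bases before the start, as 12.4% of all windows and 6 of 36 member windows held this motif. The window of Psmb10 held none of the 5 motifs. ISRE matches were found in 3.44% of all windows and in those of 4 members, Psmb3, Psmd4, Psmd9 and Psme1, and NF-kappaB site matches in 8.46% of all windows and in those of 5 members. Windows were found for 34 of the 42 members. A match is a match of letters in this window and was not tested as a binding site.

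Psmb9 and Psmb8 lie on mouse chromosome 17 in the MHC, in the gene order Psmb9, Tap1, Psmb8, Tap2. Tap1 and Tap2 encode the transporter that carries peptides from the proteasome to MHC class I. Psmb9 and Tap1 face away from each other, and their windows share 275 bases. All 4 genes rose. The log2 ratio of Tap1 was 2.37 ± 0.13 and that of Tap2 1.28 ± 0.18 (SD, n = 3 sets each; adjusted p of 5.07e-06 and 9.63e-05 in limma). The value of Tap1 averages 2 features and was 2.89 with the feature of smallest SD alone, while Psmb9 had 1 feature. The SD over sets does not include such differences between features. Tap1 exceeded its neighbour Psmb9 by 1.96 ± 0.07 (SD, n = 3 sets), on 6 of 6 arrays and by 1.74 to 2.17 on single arrays. The exact sign-flip permutation p was again 0.25, the smallest that 3 sets allow.

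Of the 3 constitutive catalytic genes 1 rose and 0 fell, while 17.3% of all genes tested rose and 16.8% fell. Psmb5, the chymotrypsin-like subunit, had 0.15, 0.02 and 0.07 in the Cy5 orientation, and 0.15, 0.05 and 0.12 in the Cy3 orientation. All 6 values were above 0, and its mean of 0.09 ± 0.06 did not pass (adjusted p = 0.192 in limma). Psmb6, the caspase-like subunit, had 0.34, 0.23 and 0.30 in the Cy5 orientation, and 0.16, 0.33 and 0.23 in the Cy3 orientation. Its mean of 0.26 ± 0.02 was a small rise of 1.2-fold (adjusted p = 0.00539 in limma, and 0.0527 without set 3). Psmb7, the trypsin-like subunit, was measured on 5 arrays, at -0.46 and -0.25 in sets 2 and 3 in the Cy5 orientation, and at 0.20, 0.24 and 0.18 in the Cy3 orientation. The dye orientations lay on opposite sides of 0, and the mean over the 2 complete sets was -0.07 ± 0.05 (adjusted p = 0.426 in limma).

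Each immunoproteasome subunit was set against the subunit whose place it takes. Psmb8 exceeded Psmb5 by 1.25 ± 0.08 on the log2 scale (SD, n = 3 sets), which is 2.37-fold, and by 1.03 to 1.53 on single arrays. Psmb10 exceeded Psmb7 by 1.58 ± 0.01 (SD, n = 2 sets), or 2.98-fold, and by 1.31 to 1.86 on the 5 arrays that measured both. For Psmb9 and Psmb6 the difference was smaller than its spread: it was 0.15 ± 0.17 (SD, n = 3 sets), with Psmb9 the higher on 3 of 6 arrays. It was 0.07 without set 1 and 0.24 without set 2, and 0.30 in the Cy5 orientation against -0.01 in the Cy3 orientation. Exact two-sided sign-flip permutation tests gave p = 0.25 for the first pair and 0.5 for the others, against smallest possible values of 0.25 with 3 sets and 0.5 with 2.

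**Figure D2:**
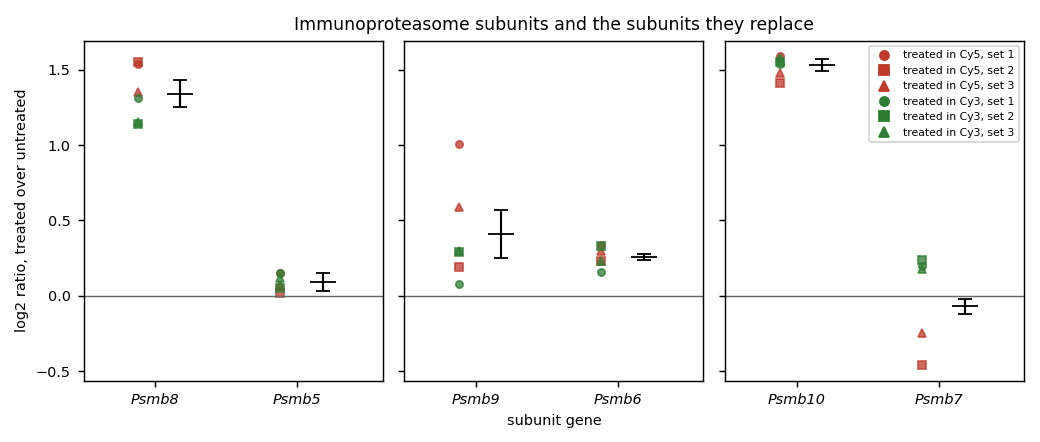
Log2 ratio of each immunoproteasome gene and of the constitutive gene whose product it replaces, by array (coloured symbols), with mean and SD over sets in black. Psmb8 and Psmb10 lie above 1.1 on all 6 arrays and their counterparts below 0.3, whereas the values of Psmb9 and Psmb6 overlap.

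The alpha ring forms the gate of the core. Of its 8 genes 5 rose and 0 fell, while 17.3% of all genes tested rose and 16.8% fell. Log2 ratios of the ring ran from -0.09 to 0.53 around a median of 0.19. Psma4 had the largest value outside the immunoproteasome. It stood at 0.40, 0.42 and 0.41 in the Cy5 orientation, and at 0.56, 0.71 and 0.64 in the Cy3 orientation. All arrays were well above 0, and the mean was 0.53 ± 0.04 (SD, n = 3 sets), or 1.44-fold (adjusted p = 0.000439 in limma). Psma5 and Psma6 rose by 0.38 ± 0.02 and 0.38 ± 0.08, both on 6 of 6 arrays, and Psma7 by 0.18 ± 0.07. Psma7 did not pass without set 1 (adjusted p = 0.103 in limma) or without set 3 (adjusted p = 0.115). Psma2 passed narrowly at 0.20 ± 0.13 (adjusted p = 0.0484 in limma). Its arrays ran from -0.39 to 0.71, and only 3 of 6 were above 0, and within each set 1 array was above 0 and the other below it. With the 6 arrays as separate values it did not pass, nor without set 2 (adjusted p = 0.123 in limma) or set 3 (adjusted p = 0.146). Psma8, a form of alpha subunit known from testis, had the lowest value, at -0.09 ± 0.12 (adjusted p = 0.277 in limma), with 5 of 6 arrays below 0. Psma1 stood at 0.11 ± 0.02 and Psma3 at 0.19 ± 0.11, and neither passed, though Psma3 did with the set number as a block (adjusted p = 0.018 in limma).

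Among the 4 structural beta subunits, which hold the inner rings together without cutting, 1 rose, against 17.3% of all genes tested. Psmb4 had no value in set 1 and stood at 0.42 and 0.36 in sets 2 and 3 in the Cy5 orientation, and at 0.14 and 0.06 in the Cy3 orientation. Its mean of 0.24 ± 0.05 (SD, n = 2 sets) passed (adjusted p = 0.0337 in limma), but not in the Cy3 orientation alone (adjusted p = 0.432). With exact zeros kept as values Psmb4 stood at 0.16 and did not pass either (adjusted p = 0.13 in limma). Psmb1, Psmb2 and Psmb3 had means of 0.09, 0.11 and 0.00. Of the 15 constitutive genes of the 20S core 7 rose and 0 fell, with a median of 0.18.

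In the 19S particle 9 of 16 genes rose and 0 fell, while 17.3% of all genes tested rose and 16.8% fell. The median was 0.18, as in the constitutive core. In its base, 3 of the 6 ATPase genes rose, with a median of 0.16. Psmc1 had 0.20, 0.14 and 0.19 in the Cy5 orientation, and 0.31, 0.36 and 0.35 in the Cy3 orientation. The values of the Cy3 orientation were the higher ones, and the mean was 0.26 ± 0.01 (adjusted p = 0.00558 in limma). Psmc2 and Psmc5 rose by 0.24 ± 0.07 and 0.21 ± 0.03, while Psmc3 stood at 0.00 ± 0.01, Psmc4 at 0.02 ± 0.04 and Psmc6 at 0.10 ± 0.06. With the set number as a block Psmc6 passed (adjusted p = 0.0434 in limma). Without set 3, Psmc1 and Psmc5 did not pass (adjusted p of 0.0589 and 0.0871 in limma). Of the base subunits without ATPase activity, the scaffold genes Psmd1 and Psmd2 rose by 0.20 ± 0.05 and 0.17 ± 0.03, and the ubiquitin receptor gene Psmd4 stood at 0.12 ± 0.08 (adjusted p = 0.124 in limma). The call of Psmd2 was lost whichever set was left out (adjusted p of 0.0513, 0.0692 and 0.161 without sets 1, 2 and 3 in limma). That of Psmd1 was lost without set 1 (adjusted p = 0.0578) and without set 3 (adjusted p = 0.113).

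In the lid 4 of 7 genes rose and 0 fell, at a median of 0.19, while 17.3% of all genes tested rose and 16.8% fell. Psmd8, whose product joins the lid late in its assembly, had 0.48, 0.62 and 0.67 in the Cy5 orientation, and 0.26, 0.28 and 0.36 in the Cy3 orientation. All 6 values were above 0 and the dye orientations did not overlap. The mean of 0.45 ± 0.07 (1.36-fold) was the largest of the 19S particle (adjusted p = 0.00121 in limma). Psmd14, the deubiquitinase that cleaves ubiquitin chains from substrates, rose by 0.24 ± 0.04, Psmd12 by 0.26 ± 0.04 and Psmd3 by 0.19 ± 0.05. Without set 3 these 3 did not pass (adjusted p of 0.0511, 0.0633 and 0.151 in limma), and Psmd3 did not pass without set 2 either (adjusted p = 0.0599). Psmd6 and Psmd13 were above 0 on 6 of 6 arrays at means of 0.14 and 0.11 but did not pass. Both passed with the 6 arrays as separate values and the set number as a block (adjusted p of 0.0355 and 0.0409 in limma). Psmd7 had the lowest mean of the lid, at 0.02 ± 0.15, and its arrays ran from -0.23 to 0.58.

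**Figure D3:**
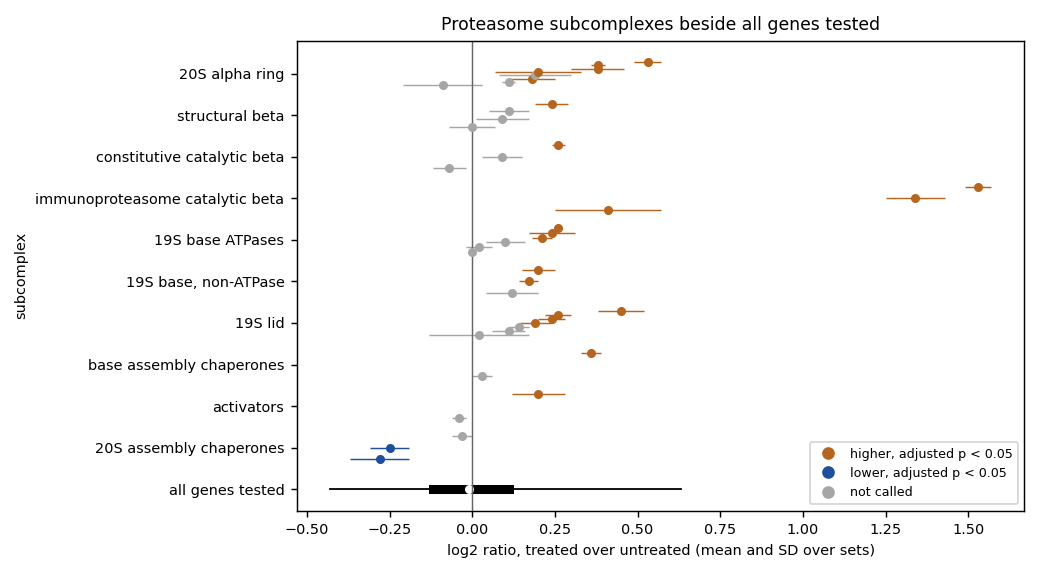
Mean log2 ratio and SD over sets of each tested proteasome gene by subcomplex, coloured by the test result, above a bar for all 10088 genes tested (thin line, 5th to 95th percentile; thick line, 25th to 75th; white point, median). Apart from Psmb8 and Psmb10, the members lie within the range from -0.43 to 0.63 that holds the central part of all genes, mostly to the right of 0.

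The activators, which open the core without ubiquitin, were covered in part. Psme1, the interferon-inducible alpha chain of PA28, was listed at exactly 0 on all 6 arrays and gives no value. Psme3, the nuclear form of PA28, had 0.23, 0.19 and 0.11 in the Cy5 orientation, and -0.24 and -0.22 in sets 2 and 3 in the Cy3 orientation. The orientations lay on opposite sides of 0 and its mean over 2 complete sets was -0.04 ± 0.02 (adjusted p = 0.647 in limma). Psme4, which encodes PA200, rose by 0.20 ± 0.08 (adjusted p = 0.0278 in limma), with 5 of 6 arrays above 0, and did not pass without set 3 (adjusted p = 0.205). Psme2, the beta chain of PA28, was not analysed here, and neither were Psmb11, Psmd5, Psmd11, Psmf1 and Psmg4. A feature annotated as Psme2b, a near-identical copy of Psme2 that the symbol rule does not take in, stood at 1.06 ± 0.03 (adjusted p = 2.95e-05 in limma), and whether it also measures RNA of Psme2 was not tested.

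The 2 members that fell were both assembly chaperones of the core. Psmg1 and Psmg2, whose products form a dimer that helps the alpha ring to assemble, were below 0 on 6 of 6 arrays. Psmg1 had -0.23, -0.22 and -0.14 in the Cy5 orientation, and -0.42, -0.24 and -0.26 in the Cy3 orientation. Its mean was -0.25 ± 0.06 (adjusted p = 0.00992 in limma). Psmg2 had -0.21, -0.22 and -0.39 in the Cy5 orientation, and -0.17, -0.33 and -0.34 in the Cy3 orientation, with a mean of -0.28 ± 0.09 (adjusted p = 0.00913 in limma). Without set 3 the adjusted p was 0.0512 for Psmg1 and 0.0827 for Psmg2. The third chaperone gene of this kind, Psmg3, stood at -0.03 ± 0.03 and did not pass. Among chaperones of the 19S base, Psmd10, which encodes gankyrin, averaged 0.36 ± 0.03 (adjusted p = 0.00184 in limma) and Psmd9 0.03 ± 0.03.

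For 8 genes the table held 2 features, which allows their ratios to be checked against each other. For Psmc1, Psmc5 and Psmd2 the features differed by 0.01 to 0.02 in the mean. For Psmb10 both rose, at 1.42 ± 0.05 and 1.63 ± 0.04. Psmd10 differed most: 1 feature stood at 0.62 ± 0.09 (adjusted p = 0.000398 in limma) and the other at 0.09 ± 0.13 (adjusted p = 0.335), so that the rise of Psmd10 rests on 1 of its 2 features. Psmc4 had features at 0.15 and -0.10, neither of which passed, and the lower one was negative on all 3 arrays of the Cy5 orientation. Psmc2 had features at 0.29 and 0.19, both of which passed (adjusted p = 0.00944 and 0.0287 in limma). The higher one averaged -0.03 in the Cy5 orientation and 0.60 in the Cy3 orientation.

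**Figure D4:**
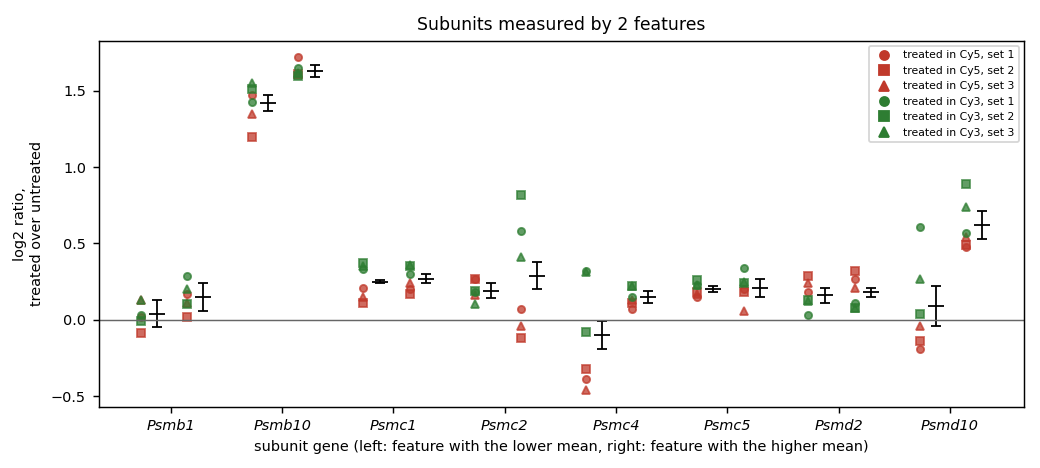
Log2 ratio on each array for the 8 proteasome genes measured by 2 features, with the feature of lower mean to the left and mean and SD over sets in black. The features of Psmc1, Psmc5 and Psmd2 coincide, whereas those of Psmd10 lie at 0.09 and 0.62.

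Because most shifts were small, the 2 dye orientations were compared for every gene. The difference between them passed for 2 of 41 members, Psma1 and Psmb7, and for 4.08% of all genes (adjusted p under 0.05, limma). On every measured array the orientations lay on opposite sides of 0 for 5 of 41 members, against 11.3% of all 10131 genes with at least 2 arrays in each orientation. The mean was lower in the Cy5 orientation than in the Cy3 orientation for 26 of the 41 members, a count not made over all genes. The median over members was 0.15 in the Cy5 orientation and 0.19 in the Cy3 orientation. Over all genes the medians were 0.01 and -0.02. For the ATPases of the base they were 0.03 and 0.26.

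**Figure D5:**
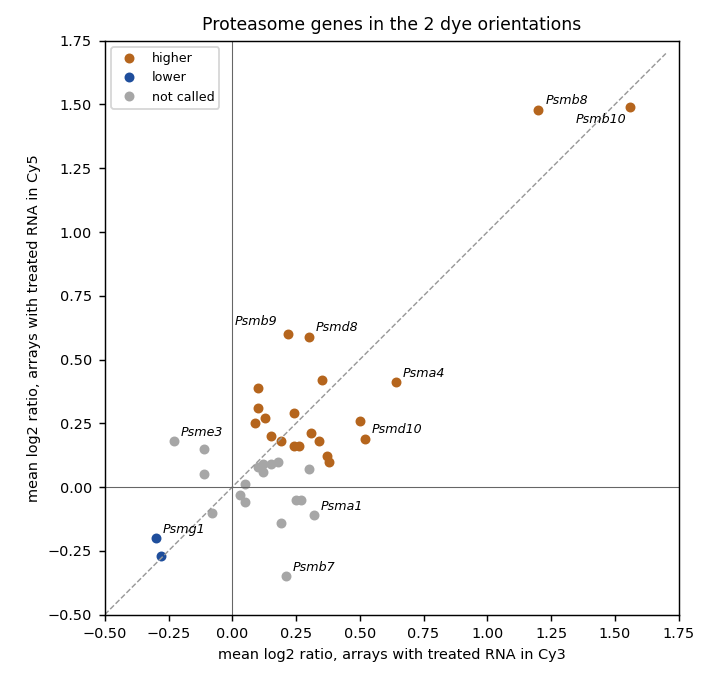
Mean log2 ratio of each proteasome gene in the Cy5 orientation (vertical) and in the Cy3 orientation (horizontal), coloured by the test result over both, with the line of equality dashed. Psmb8, Psmb10 and Psmb9 and the other genes that rose are above 0 on both axes, and genes with opposite signs on the axes include Psma1, Psmb7 and Psme3.

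Other genes of proteasome supply and use were taken from a list of 26 symbols, of which 14 were tested. Of these 5 rose, 2 fell and 7 did not pass, with a median of 0.11. For this list and those below, the shares of all genes tested were 17.3% that rose and 16.8% that fell. The 2 of 14 that fell here were near the latter share. Nfe2l1, a transcription factor that raises proteasome genes when proteasome capacity is short, rose by 0.49 ± 0.09 (adjusted p = 0.001 in limma). Pomp, the maturation protein of the core, rose by 0.36 ± 0.02 (adjusted p = 0.00156 in limma), on 6 of 6 arrays. Vcp, the ATPase that extracts ubiquitinated proteins, rose by 0.27 ± 0.04. Zfand2a, a stress-induced partner of the 19S particle, fell by 0.41 on the log2 scale over 2 sets, and Ubqln4, a shuttle for ubiquitinated proteins, had a mean of -0.25 ± 0.05. In the list of MHC class I peptide supply, 9 of 14 tested genes rose and 0 fell, with a median of 0.47, led by Tap1, the peptide-loading gene Tapbp (1.53 ± 0.05) and Tap2. All 7 tested interferon response regulators rose, led by the interferon gene Ifnb1 (4.30 ± 0.55), Irf7 and Stat2 (2.65 ± 0.05). Irf1 rose by 1.92 ± 0.19 and Irf7 by 2.71 ± 0.23 (adjusted p of 2.65e-05 and 1.12e-05 in limma). Irf1 encodes a factor known to act on immunoproteasome genes.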

How the data were processed

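RNA of treated and untreated RAW 264.7 cells was measured on 6 two-colour arrays. The deposited values are log2 ratios, 1 per feature and array, and every array has a median of 0. Their largest value, 6.64, is log2 of 100, which gave the log base. How the authors scanned, background-corrected and normalized the arrays is not given in the sources used here, and no channel intensities were used, so the number of arrays limits the precision.

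Features were named from the platform annotation. All 42 members matched a RefSeq gene of GRCm38.p6 by identifier and symbol. Where Cy3 marked the treated RNA, ratios were multiplied by -1, and exact zeros were treated as missing. A feature had a set mean where both of its arrays were measured, so that a dye effect cancelled. Set means were averaged over the features of a gene measured in the most sets. Genes with at least 2 sets (10088) entered limma 3.58.1 (R 4.3.3; lmFit, then eBayes) for a test of the mean against 0, called at a Benjamini-Hochberg adjusted p under 0.05. The dye difference was the dye term of a limma fit to the 6 arrays. On simulated data the test recovered large changes far more often than small ones. Far fewer genes changed in the simulation than were called here, so it does not give the power of the test in these data. A member that did not pass may still have changed. Each set was 1 replicate because the labels do not say whether its arrays share RNA extracts. The members, lists, tests and 13 alternatives were chosen with earlier results of these data known. All members are named. Of each other list the text names, among genes that passed, the 3 that rose most and the 3 that fell most, and always Pomp, Nfe2l1, Tap1, Tap2 and Irf1.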

Additional observations from a re-analysis of the deposited data

Results flagged for a closer look

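For 5 proteasome genes every measured array of the Cy5 orientation lay on one side of 0 and every one of the Cy3 orientation on the other, a pattern that 11.3% of all 10131 genes with at least 2 arrays in each orientation showed and 5 of 41 members. The mean of the Cy5 orientation minus that of the Cy3 orientation was -0.43 for Psma1 (-0.11 and 0.32, adjusted p of the dye term 0.0428 in limma), -0.56 for Psmb7 (-0.35 and 0.21, adjusted p = 0.0464), -0.33 for Psmc4 (-0.14 and 0.19, adjusted p = 0.0639), -0.30 for Psmc6 (-0.05 and 0.25, adjusted p = 0.0645) and 0.41 for Psme3 (0.18 and -0.23, adjusted p = 0.0562). None of the 5 passed the test of treated against untreated cells. That test averages the 2 orientations, so opposite signs pull its means towards 0 and this outcome follows largely from how the genes were picked. Psmc4 showed the pattern only as the average of its 2 features. In the Cy5 and Cy3 orientations 1 feature averaged 0.10 and 0.20, and the other -0.39 and 0.18.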

How the results depend on the processing

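Of 23 called members, Psma4, Psma5, Psma6, Psmb8, Psmb10 and Psmd8 passed under all 13 alternatives, Psmb10 with log2 ratios from 1.49 to 1.63. Over the members' values under all alternatives, 455 of 521 kept direction and side of the threshold, 42 no longer passed, 14 newly passed and 10 turned sign. The cause was not tested in any case below. The number of members that rose was 18 of 41 without set 1, 17 of 38 without set 2 and 9 of 38 without set 3. The shares of all genes that rose were then 17.3%, 18% and 11.4%. In the Cy5 orientation alone 12 of 41 members rose, against 16% of all genes, and in the Cy3 orientation alone 17 of 41, against 12.4%. The number of members that fell was 2, 2 and 0 without sets 1, 2 and 3, against 16.8%, 18.5% and 9.67% of all genes. It was 2 in the Cy5 orientation alone, against 16.8%, and 2 in the Cy3 orientation alone, against 11.2%. In the Cy5 orientation alone, Psma1 was at -0.11, Psmb2 at -0.05, Psmc4 at -0.14, Psmc6 at -0.05, Psme3 at 0.18 and Psmg3 at 0.05, and medians were 0.03 for the ATPases, 0.15 for the lid, 0.08 for the constitutive core, 0.13 for the 19S particle, 0.15 for all members and 0.11 without the immunoproteasome genes. Psmb8 minus Psmb5 was 1.40, Psmb9 minus Psmb6 0.30 and Psmb10 minus Psmb7 1.80. In the Cy3 orientation alone, Psmb7 was at 0.21 and Psmd7 at -0.11, medians were 0.31 for the alpha ring, 0.26 for the ATPases, 0.21 for the core, 0.22 for the 19S particle, 0.19 for all members and 0.18 without the immunoproteasome genes, and the pair differences were 1.10 for Psmb8, -0.01 for Psmb9 and 1.35 for Psmb10. With zeros kept as values, Psme3 was at 0.01, the core at 0.16, all members at 0.17 and Psmb10 minus Psmb7 at 1.54, which was 1.63 after scaling, 1.68 after quantile normalization and 1.68 with the feature of smallest SD. Features measured on all 6 arrays gave a median of 0.17 without the immunoproteasome genes, as did the fit with the set number as a replicate block. With 1 set left out, Psmb9 minus Psmb6 ran from 0.07 to 0.24, Psmd7 ran from -0.06 to 0.10, and medians ran from 0.14 to 0.21 for the core, 0.16 to 0.18 for the 19S particle, 0.15 to 0.18 for all members and 0.14 to 0.17 without the immunoproteasome genes.

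The replicate block gave 22 of 38 members higher and 2 lower, against 19.8% and 19.9% of all genes. The 6 arrays without it gave 23 and 2 of 41, against 18.8% and 18.6% of all genes. With the block Psma3, Psmc6, Psmd6 and Psmd13 newly passed and Psma2 and Psmb9 no longer did. Same-numbered arrays deviated together in the deposited ratios with r of 0.254, 0.191 and 0.0842 over genes, and 5 of 6 arrays correlated best with their own number. The dyes are swapped within a set, so such deviations have opposite signs once turned to treated over untreated. These r therefore do not show that the arrays of a set agree on the treatment. The main test joined the 2 arrays of a number in a set mean, as the labels number them. Since 1 of these r was under 0.1, the data alone do not show a shared deviation in every set. Each array's median was near 0 and scaling moved the median of all genes by at most 0.00241. The small number of arrays and the lack of intensities here limit what can be said of changes as small as those of most members.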
